A study of Rattus norvegicus with 2 samples.

Results

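HMGB2 peaks in unplaced genome sequence are the subject here: all ChIP-seq peaks of the series whose chromosome is Un in the rat build rn4. They number 1395, of 86412 peaks in all, with 866 of 43721 in the list from basal cells and 529 of 42691 in the list from phenylephrine-treated cells. Each member was taken by its chromosome name alone, with no filter on score, width or overlap. Unplaced sequence itself was picked as the subject with earlier results of these data known. They were set beside the 42482 basal and 41551 phenylephrine peaks on chromosomes 1 to 20.

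Both libraries came from neonatal rat ventricular myocytes, heart muscle cells kept in primary culture, from Sprague Dawley pups 1 day old. The basal cells had no treatment. The other cells had 10 µM phenylephrine, an agonist of alpha-1 adrenergic receptors that drives hypertrophic growth in such cultures, for 48 h. In both, HMGB2 was precipitated from formaldehyde-fixed, sonicated chromatin with an anti-HMGB2 antibody and the DNA was sequenced. There was 1 library per condition, so culture-to-culture spread could not be measured, the treatment was not tested, and each difference is one between 2 lists of peaks. The sources used here do not give how many pups or cultures went into each library. Peak lists hold no RNA levels, so the cell type could not be checked against marker genes.

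HMGB2 is a non-histone chromatin protein of the high mobility group box family. Its HMG boxes bind the minor groove of DNA with little sequence preference and bend it, and the protein takes part in the packing of chromatin. Unplaced sequence is the part of a draft assembly that could not be assigned to a chromosome. In build rn4 it is strung together from contigs in an order that has no genomic meaning, so a distance along it holds only within a contig. Such sequence is commonly rich in repeats and recent duplications, and near-identical copies can be represented by fewer copies than the genome holds. Reads from all of them then map to the copies that are there. Whether this bears on the peaks described here was not tested, and copy number was not measured.

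HMGB2 peaks were sparse along unplaced sequence but took a large part of the highest scores. Unplaced sequence had 11.4 basal peaks per Mb and 6.99 phenylephrine peaks per Mb over a span of 75.7 Mb, fewer than any of the 20 autosomes, which ran from 12.6 to 28.0 (basal) and from 13.4 to 22.4 (phenylephrine). The basal peaks covered 1.38% of the span and the phenylephrine peaks 0.488%, against autosomal medians of 2.12% and 1.04%. The span runs to the end of the last peak and includes assembly gaps, which lowers the density by an unknown amount. The score is the value the authors' peak caller gave each peak. The sources used here give no scale for it. It starts at 50 and was read only within a list.

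The share of peaks in unplaced sequence rose steeply towards the top of each list. It was 1.98% of all basal peaks (Wilson 95% interval 1.85 to 2.12%), 2.95% of the 10000 highest-scoring, 10.0% of the 1000 highest-scoring and 37.0% of the 100 highest-scoring (28.2 to 46.8%). In the phenylephrine list it was 1.24% of all peaks (1.14 to 1.35%), 1.94% of the top 10000, 8.10% of the top 1000 and 34.0% of the top 100 (25.5 to 43.7%). Among the 50 highest scores, 21 basal and 22 phenylephrine peaks lay in unplaced sequence. These intervals, here and below, allow for the counting of peaks and for no other error, and adjacent peaks may depend on each other.

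**Figure D1:**
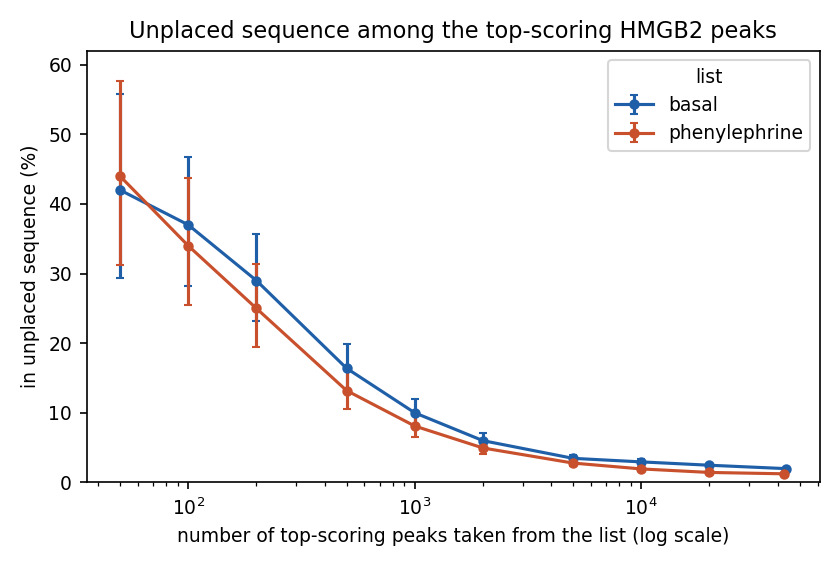
Percentage of peaks that lie in unplaced sequence (vertical axis) among increasing numbers of top-scoring peaks (horizontal axis, log scale), for the basal and phenylephrine lists; bars are Wilson 95% intervals. Both curves fall from over 40% at the top 50 to 1.98% and 1.24% over the full lists.

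Most of this excess sat at the far end of the score range. In the basal list unplaced sequence held 2.12% of the peaks scoring 200 to 500 (1.71 to 2.61%), close to its share of the whole list, but 12.7% of those scoring 500 to 1000 (8.96 to 17.6%) and 31.9% of those scoring 1000 or more (24.8 to 40.0%). In the phenylephrine list the share was 15.1% at 200 to 500 (10.2 to 21.8%) and 44.4% at 1000 or more (30.9 to 58.8%). It stayed near 1% in every band below 100. Scores of at least 200 were reached by 4339 of 43721 basal but 226 of 42691 phenylephrine peaks. The same band therefore lies at another depth of each list and is not compared between them.

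Seen from the peaks, 74 of 866 basal peaks in unplaced sequence scored at least 500, which is 8.55% (6.86 to 10.6%), where the whole list had 0.846% and the autosomes 0.671%. In the phenylephrine list 30 of 529 did, 5.67% (4.0 to 7.98%), against 0.187% of the whole list and 0.116% on the autosomes. Scores of at least 100 were reached by 43.2% of basal members and 21.7% of phenylephrine members, against 32.6% and 7.43% of the whole lists. The median scores lay closer together. The basal median was 89.4 (84.9 to 94.3) in unplaced sequence and 76.5 (76.0 to 76.9) on the autosomes. The phenylephrine medians were 66.2 (63.5 to 69.0) and 62.3 (62.2 to 62.5).

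No autosome came near unplaced sequence in the share of its peaks that belonged to the top 1% of a list. That share was 9.24% (7.49 to 11.4%) of the basal and 12.1% (9.59 to 15.2%) of the phenylephrine members. Over the 20 autosomes it ran from 0.332 to 2.74% in the basal list and from 0.313 to 2.00% in the phenylephrine list, with chromosome 16 the highest in both. Chromosome X had 2.96% and 0.984%, and its median scores were 87.2 (basal) and 61.5 (phenylephrine). Per length the order was the same despite the low density of peaks. Unplaced sequence had 10.6 basal and 8.45 phenylephrine top-1% peaks per 10 Mb, and the highest autosomes held 4.21 (chromosome 16) and 3.64 (chromosome 12).

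**Figure D2:**
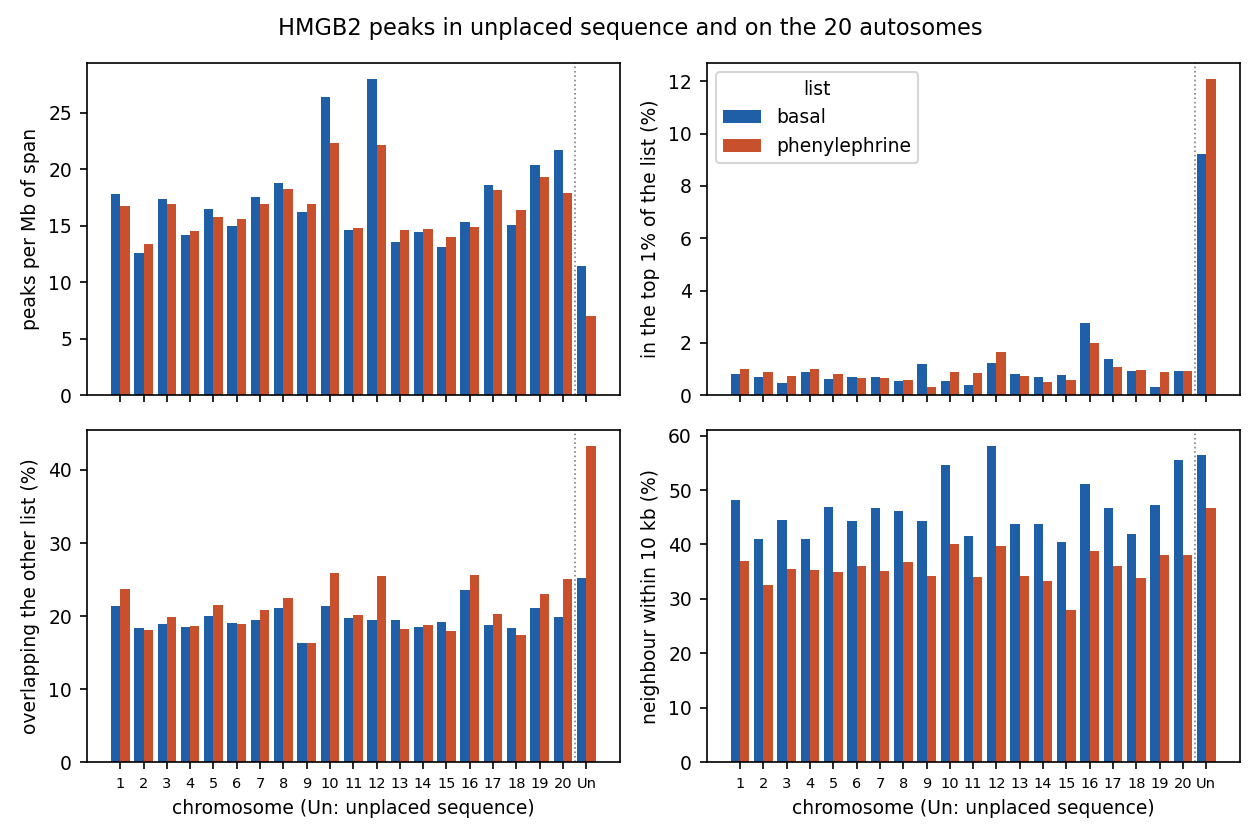
Bars give, for each autosome and for unplaced sequence (Un, right of the dotted line), peaks per Mb, the percentage of the chromosome's peaks in the top 1% of the list, the percentage overlapping the other list and the percentage with a neighbour within 10 kb, for both lists. Of those drawn, unplaced sequence has the fewest peaks per Mb (11.4 and 6.99) and the highest percentage in the top 1% (9.24 and 12.1). Chromosome X is not drawn.

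The highest-scoring members were found in both libraries, as were the highest-scoring autosomal peaks. At basal scores of at least 3100, all 20 members and all 24 autosomal peaks were shared. The first member by basal score was a peak of 1241 bp at 63167981 to 63169221 (score 3154, rank 3 of the basal list). Its partner in the phenylephrine list, at 63168193 to 63169164, scored 367 and ranked 107 there. A further 19 basal members scored exactly 3100, a value at which many peaks of both lists are tied, so no order among them can be read. By width the first of these were peaks of 4512 bp at 448390 to 452901, 3562 bp at 23374080 to 23377641 and 3191 bp at 429676 to 432866. Their phenylephrine partners scored 1263, 1115 and 2879.

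The remaining 6 of the 10 highest basal members scored 3100 as well. They lay at 24646394 to 24649301, 53732444 to 53734953, 18674842 to 18677265, 23386908 to 23389210, 23405566 to 23407766 and 439970 to 442138. Their partners scored 1324, 872, 1711, 1465, 2683 and 1859, in this order, and so belonged to the 47 highest phenylephrine scores. The basal peak at 53732444 had 2 partners, of which the higher-scoring is given.

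In the phenylephrine list 3 members were tied at a score of 3100. They lay at 7973790 to 7975550 (1761 bp), 479743 to 481267 (1525 bp) and 46991417 to 46992331 (915 bp), and their basal partners scored 3100 too. The 7 that followed scored from 1711 to 2879, and each of them overlapped a basal peak with a score of 3100. Besides the partners already named, these included compact peaks of 449 bp at 38479453 to 38479901 (score 2553) and 384 bp at 29995055 to 29995438 (score 1718), and a peak of 1112 bp at 23403085 to 23404196 (score 2382). Each of the 10 highest phenylephrine members thus overlapped a basal peak tied at 3100. From the basal side the match was looser, as in the partner at rank 107 of the first basal member.

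HMGB2 peaks in unplaced sequence were shared between the libraries more often than autosomal peaks, above all when counted from the phenylephrine list. Sharing means that at least 1 bp of a peak is also covered in the other library's list, which held for 19.9% of all basal and 21.0% of all phenylephrine peaks. Of the members, 218 of 866 basal peaks were shared, 25.2% (22.4 to 28.2%), and 229 of 529 phenylephrine peaks, 43.3% (39.1 to 47.5%). The autosomes had 19.7% and 20.8%. The highest autosomes reached 23.5% in the basal list (chromosome 16) and 25.9% in the phenylephrine list (chromosome 10). Chromosome X had 24.2% and 16.1%.

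The score of the peaks moved with this difference, and in a different way in each list. When the autosomal peaks were weighted to the score bands of the members, their share of shared peaks was 27.1% in the basal list, above the 25.2% of unplaced sequence. The weighted share lay within the members' interval (22.4 to 28.2%), so no basal difference could be told once scores were matched. In the phenylephrine list the weighted autosomal share was 30.2%, still below 43.3%. There the members were shared more often in each band under 200. From 50 to 60 it was 25.5% (19.9 to 32.1%) against 14.6% on the autosomes, and from 100 to 200 it was 79.4% (67.8 to 87.5%) against 54.0% (52.2 to 55.8%). From 500 upwards all 30 phenylephrine members and all 48 autosomal peaks were shared.

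**Figure D3:**
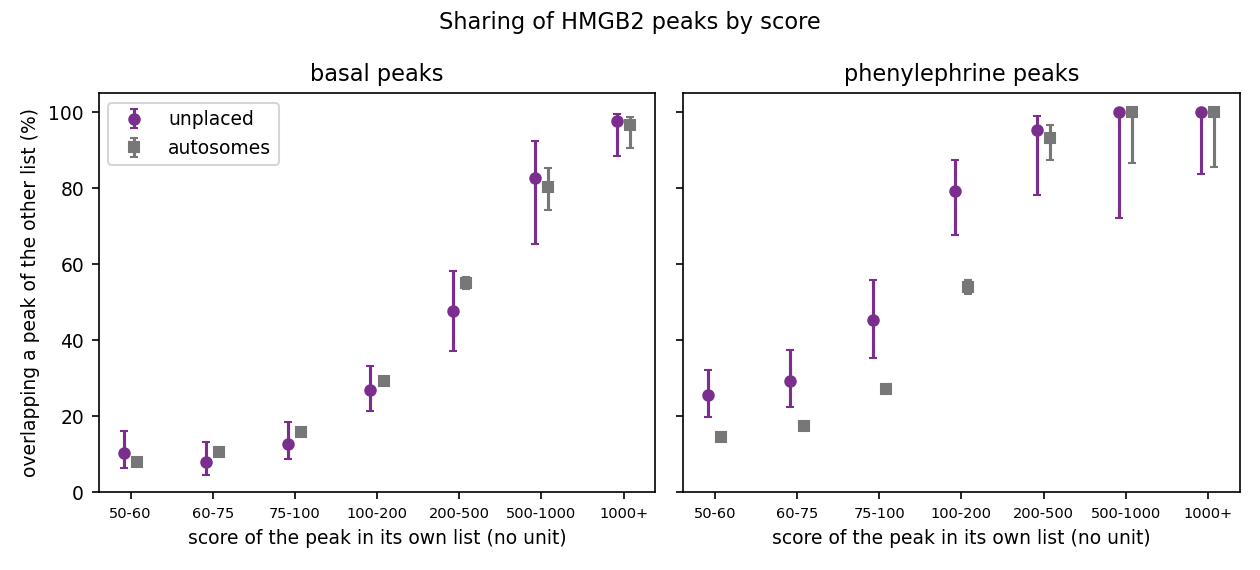
Percentage of peaks overlapping a peak of the other list (vertical axis) by score band of the peak in its own list (horizontal axis), for unplaced sequence (circles) and autosomes (squares); bars are Wilson 95% intervals. For basal peaks the intervals overlap in each band; for phenylephrine peaks unplaced sequence lies above the autosomes in the 4 bands under 200, at 79.4% against 54.0% from 100 to 200.

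The difference in sharing between the lists goes with their numbers of peaks in unplaced sequence. The phenylephrine list held 0.611 times as many members as the basal list, while on the autosomes the ratio was 0.978. Of the 648 unshared basal members 208 scored at least 100, and their median score was 79.9, against 196 for the shared ones. Of the 300 unshared phenylephrine members 14 scored at least 100, with a median of 60.6 against 89.1 for the shared ones. Unshared members were also narrower, with median widths of 961 and 1421 bp for unshared and shared basal peaks and 571 and 707 bp for phenylephrine peaks. Scores of at least 100 were reached by 32.6% of all basal and 7.43% of all phenylephrine peaks, so these counts cannot be compared between the lists. Unshared autosomal peaks were not summarised in this way, so none of these values marks out unplaced sequence.

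Strong members called in 1 library only were few, and so were such peaks on the autosomes. At basal scores of at least 500, 68 of 74 members were shared, 91.9% (83.4 to 96.2%). On the autosomes 244 of 285 were, 85.6% (81.1 to 89.2%), with overlapping intervals. The highest-scoring unshared basal members lay at 74066066 to 74067841 (score 1063), 42621884 to 42623590 (820), 70529931 to 70532236 (573), 38339100 to 38340242 (548) and 8863841 to 8864507 (530). The nearest phenylephrine peaks lay 6.98, 12.9, 201, 73.2 and 8.64 kb away. Contig ends were not used, so the longer distances here may cross them. The unshared phenylephrine peaks began at a lower level. They lay at 9467980 to 9468207 (score 284), 70732981 to 70733266 (155), 49895666 to 49896367 (148), 23870682 to 23871477 (139) and 15907176 to 15907469 (137). A basal peak lay within 1.12 and 1.42 kb of those at 49895666 and 23870682, and 85.5 kb from the last. Those at 9467980, 70732981 and 15907176 were only 228, 286 and 294 bp wide.

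Where peaks of both lists overlapped, their scores followed each other. The 230 overlapping pairs in unplaced sequence had a Spearman's rho of 0.71 between basal and phenylephrine score, and the 8675 autosomal pairs 0.26. These are descriptions across sites of 1 pair of libraries, and the wide range of scores in unplaced sequence bears on the value. Both peaks belonged to the top 1% of their lists in 54 of the 230 pairs, 23.5% (18.5 to 29.4%), and in 1.53% (1.30 to 1.81%) of autosomal pairs. Without the 2 strong runs of peaks described further on, 31 of 204 pairs did, 15.2% (10.9 to 20.8%), and rho was 0.62.

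**Figure D4:**
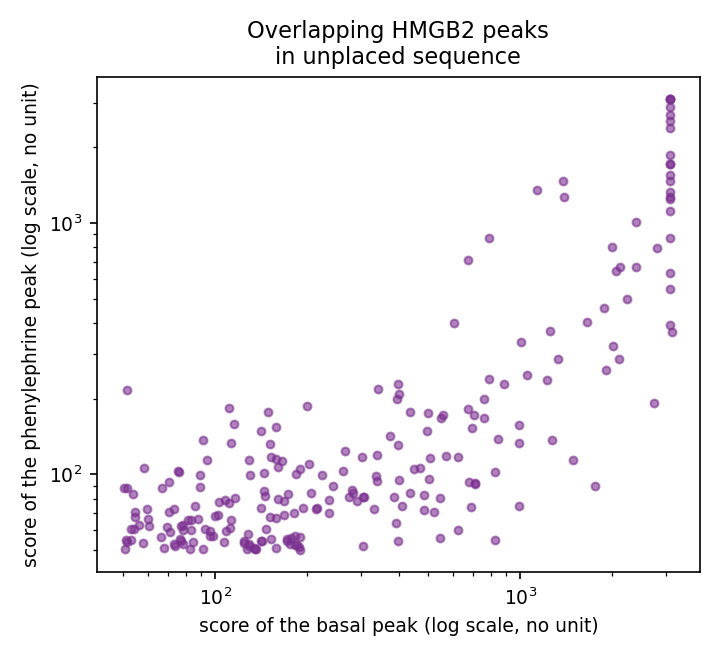
Each point is 1 of 230 overlapping pairs of HMGB2 peaks in unplaced sequence, with the basal score on the horizontal and the phenylephrine score on the vertical axis, both log scales without a unit. Pairs low in both lists form the lower left, the basal scores of 3100 stand in a column at the right, and rho is 0.71.

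Basal peaks in unplaced sequence had a lower median width than autosomal ones, while phenylephrine peaks had a slightly higher one. The median basal width was 1009 bp (987 to 1039) in unplaced sequence and 1113 bp (1108 to 1118) on the autosomes, and it lay under that of each of the 20 autosomes, which began at 1054 bp. The phenylephrine medians were 605 bp (586 to 617) and 585 bp (583 to 586). With the autosomal peaks weighted to the score bands of the members, the phenylephrine members were no longer wider by the mean. Their mean width was 698 bp, against 636 bp unweighted and 718 bp weighted on the autosomes. These means carry no interval. By median the order of phenylephrine widths differed between bands. It was 663 bp (617 to 761) against 628 bp (622 to 635) on the autosomes at scores of 75 to 100. At 100 to 200 it was 792 bp (683 to 924) against 829 bp (808 to 845). The basal means were 1210 bp against 1305 and 1382 bp. In the basal list the members were narrower in each score band under 200, for example 792 bp (734 to 836) against 908 bp (901 to 914) at 50 to 60. At scores of 1000 or more they were not, with 1359 bp (1153 to 1776) against 1199 bp (1074 to 1413).

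The widest members did not always score high. The widest basal peak spanned 5634 bp at 24639836 to 24645469 and scored 116, and the next spanned 5399 bp at 51875911 to 51881309 and scored 79.8 with no phenylephrine partner. The others of the 5 widest were 5063 bp at 38260833 to 38265895 (score 1250), 4730 bp at 4797877 to 4802606 (322) and 4666 bp at 64556414 to 64561079 (212). In the phenylephrine list 4 of the 5 widest were partners of basal peaks with a score of 3100, led by 4531 bp at 448392 to 452922. The other, 2630 bp at 62130739 to 62133368, scored 173.

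Some of the narrowest members scored high. The 3 narrowest basal peaks spanned 334 bp at 38510352 to 38510685 (score 141), 354 bp at 53920525 to 53920878 (91.4) and 355 bp at 23413829 to 23414183 (1055). All of them overlapped a phenylephrine peak of similar width, of 368, 351 and 333 bp. The narrowest phenylephrine peaks were the unshared ones at 9467980 and 70732981 already named and a peak of 284 bp at 21221843 to 21222126 (score 112).

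Within pairs the basal peak was wider in 214 of 230 cases, 93.0% (89.0 to 95.7%), against 95.5% of autosomal pairs. The median ratio of basal to phenylephrine width was 1.71 (1.58 to 1.93) in unplaced sequence and 2.00 (1.98 to 2.03) on the autosomes. Peak edges were also compared, a measure chosen after the values were seen. Both edges lay within 50 bp of each other in 21 of the 230 pairs, 9.13% (6.05 to 13.6%), and in 0.853% (0.680 to 1.07%) of autosomal pairs. Of these 21 pairs, 15 came from the 2 runs of peaks described next, and outside them the share was 2.94% (1.35 to 6.27%). Among pairs scoring at least 500 in both lists it was 33.3% (19.2 to 51.2%) in unplaced sequence and 23.8% (13.5 to 38.5%) on the autosomes, with overlapping intervals.

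HMGB2 peaks in unplaced sequence piled up locally at short range. Another peak of the same list lay within 10 kb of 46.3% of all basal and 35.4% of all phenylephrine peaks. Among the members these shares were 56.4% (53.0 to 59.6%) and 46.7% (42.5 to 51.0%), and on the autosomes 46.2% and 35.5%. Only chromosome 12 (58.1%) lay above unplaced sequence in the basal list, and no autosome did in the phenylephrine list. Within 1 kb the shares were 17.2% (14.8 to 19.9%) and 11.2% (8.75 to 14.1%) against 6.17% and 4.68% on the autosomes. At 50 kb the order turned, with 85.6% and 77.1% of members against 89.6% and 86.1%. Gaps were taken without regard to contig ends, so those in unplaced sequence may cross them. Gaps between neighbouring members were spread more widely than on the autosomes. For basal members the gap to the nearest peak had a lower quartile of 2.31 kb, a median of 7.18 kb and a 90th percentile of 69.3 kb, against 5.34, 11.1 and 51.4 kb on the autosomes.

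High scores were more frequent among piled-up members, and 2 places held a large part of them. Peaks of a list were joined into a run where the gap between neighbours was at most 10 kb. Of the 378 basal members that stood alone, 3.70% (2.22 to 6.12%) scored at least 500, and of the 138 in runs of 5 or more, 23.2% (16.9 to 30.9%). For phenylephrine members the values were 1.77% (0.760 to 4.08%) of 282 and 27.9% (18.2 to 40.2%) of 61. From lone members to runs of 5 or more, sharing rose from 16.1 to 46.4% of basal and from 30.5 to 82.0% of phenylephrine members. On the autosomes it rose too, though less, from 19.3 to 22.7% and from 18.9 to 31.8%. Lone basal members (interval 12.8 to 20.2%) were thus shared no more often than lone autosomal peaks. On the autosomes the shares scoring at least 500 were 0.591% of lone basal peaks and 2.24% of those in runs of 5 or more. The 2 runs described next have the highest summed scores, so leaving them out must lower the share of high scores. Without them, 8 of 108 basal members in runs of 5 or more scored at least 500, 7.41% (3.801 to 13.9%). That overlaps the interval of lone members. Of the 35 phenylephrine members then left, 0 did, which allows up to 9.89% by the same interval. Sharing stayed above that of lone members, at 35.2% (26.8 to 44.6%) and 68.6% (52.0 to 81.4%).

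A pair of runs held a large part of the strong peaks. The longer, at 426501 to 494834, counted 20 basal peaks over 68.3 kb, of which 15 scored at least 500 and 17 overlapped a phenylephrine peak. The phenylephrine run there counted 17 peaks at 426505 to 487525. All of its peaks were shared, and 10 scored at least 500. The other run, at 23374080 to 23418273, counted 10 basal peaks over 44.2 kb, 9 of them shared and scoring at least 500, with 9 phenylephrine peaks, of which 7 scored at least 500. Such scores belonged to 74 basal members, 24 of them in these runs, and to 30 phenylephrine members, 17 of them there. Of all members, only 30 of 866 and 26 of 529 lay in the runs.

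Inside these runs the lists matched closely in position. Over the 26 overlapping pairs the median offset between the starts was 16.5 bp (10 to 36) and between the ends 21.5 bp (8 to 46). The median width ratio was 1.03 (1.02 to 1.11), against 1.83 (1.69 to 2.04) for the other 204 pairs in unplaced sequence. The basal peak at 448390 to 452901 and the phenylephrine peak at 448392 to 452922 were 4512 and 4531 bp wide. At 437814 to 439043 and 437825 to 439040 they were 1230 and 1216 bp wide and scored 1390 and 1271. A wider basal peak remained in places: at 472688 to 474275 it spanned 1588 bp, and its partner at 472721 to 473320 spanned 600 bp.

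**Figure D5:**
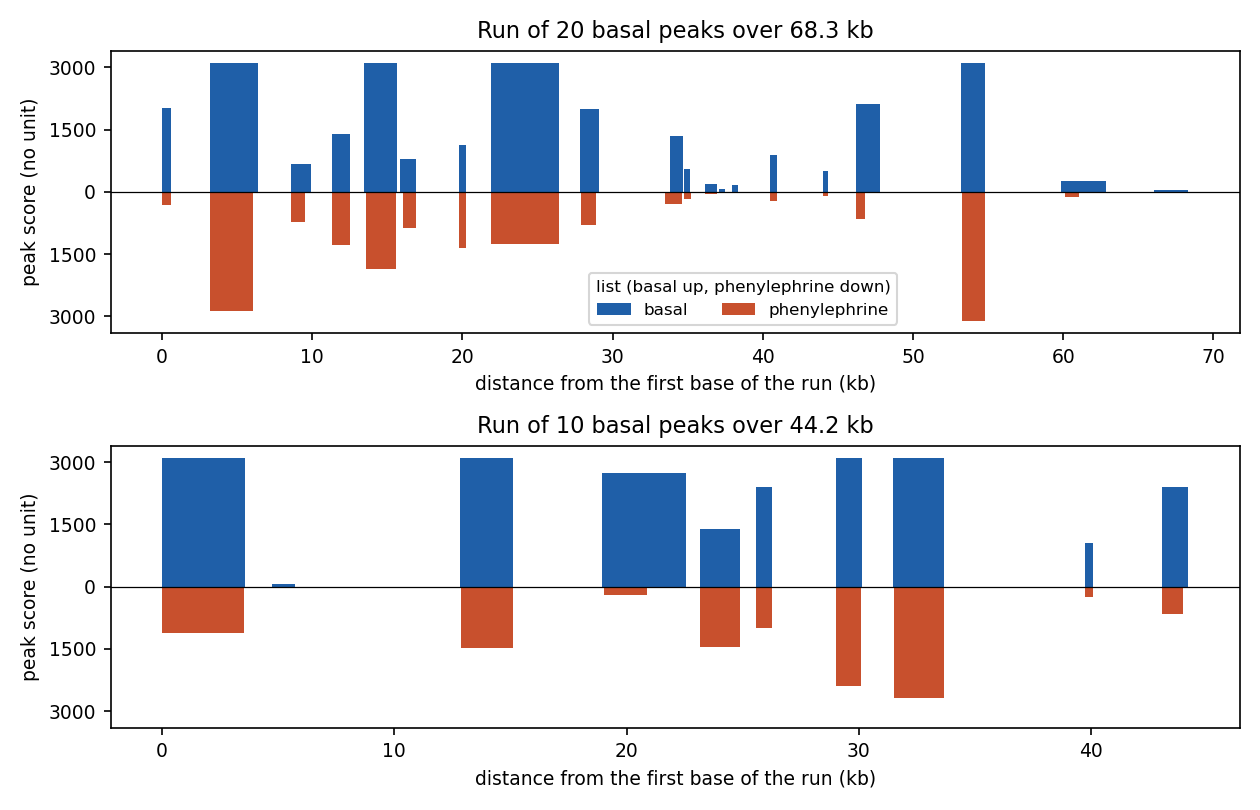
HMGB2 peaks of the 2 runs with the highest summed score in unplaced sequence, drawn to scale by distance from the first base of the basal run (kb), with basal scores upwards and phenylephrine scores downwards (no unit, not comparable between lists). The upper run has 20 basal and 17 phenylephrine peaks and the lower 10 and 9, and most bars face a partner of nearly the same extent.

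Other runs with many peaks scored lower. The second basal run by number of peaks, at 8863841 to 8902740, held 11 peaks, of which 2 scored at least 500 (up to 1655) and 3 overlapped a phenylephrine peak. The second phenylephrine run, at 70010940 to 70055833, held 11 peaks scoring at most 237, with 8 shared. Runs of 5 or more numbered 20 in the basal and 7 in the phenylephrine list, 2.64 and 0.925 per 10 Mb, against 1.20 and 0.293 on the autosomes.

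Strong members outside the 2 runs were scattered. Members of both lists scoring at least 500 were joined within 50 kb, with those of the 2 runs included. The 104 peaks fell into 36 places, of which 13 held peaks of both lists, 23 basal peaks only and 0 phenylephrine peaks only. The 5 places with most peaks, the 2 runs among them, held 53 of the 104, 51.0%. The runs had 15 basal and 10 phenylephrine, and 9 basal and 7 phenylephrine, of these peaks. No other place held more than 3 basal or 2 phenylephrine ones. Since far fewer phenylephrine than basal peaks reach a score of 500, a place with basal peaks only is not a place without phenylephrine peaks.

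The number of members varied over unplaced sequence in both libraries together. Counted by midpoint in bins of 1 Mb, the 76 bins held from 0 to 39 basal and from 0 to 38 phenylephrine peaks. The medians were 8.5 and 5, and the counts had a Spearman's rho of 0.83 across bins. Across the 2568 autosomal bins rho was 0.89, so this likeness of the lists is not particular to unplaced sequence. Bins of the same sequence share their mappable length, which was not measured, and they were cut without regard to contig ends. The fullest bins, at 25000001 to 26000000, 24000001 to 25000000 and 52000001 to 53000000, held 39, 36 and 32 basal and 38, 28 and 21 phenylephrine peaks. Those at 25000001 and 52000001 held 0 members scoring at least 500 in either list, and that at 24000001 held 2 in each. The bin at 1 to 1000000, singled out after its values were seen, held 30 basal and 21 phenylephrine peaks, of which 17 and 11 scored at least 500.

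More basal than phenylephrine peaks were counted in 60 of the 76 bins, fewer in 9 and equal numbers in 7. Exact Poisson 95% intervals of the counts lay apart in 4 bins, which were singled out after their values were seen and all had more basal peaks. They were the bin at 2000001 to 3000000 with 20 basal (12.2 to 30.9) and 2 phenylephrine peaks (0.242 to 7.22), that at 8000001 to 9000000 with 34 and 14, that at 50000001 to 51000000 with 25 and 7, and that at 69000001 to 70000000 with 9 and 0. A count of 0 here allows up to 3.69 peaks by the same interval. Poisson intervals take peaks as independent, but members piled up in runs, so these intervals may be too narrow. Across bins the variance was 8.36 times the mean for basal and 8.05 times for phenylephrine counts. Autosomal bins were not compared in this way, and read depth is unknown. The 4 bins therefore do not show a local difference between conditions, which was not tested. With more basal peaks in 60 of the 76 bins, the lower number of phenylephrine members was spread over most bins.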

How the data were processed

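The authors deposited 1 peak list per library, with chromosome, start, end and a score, as bedGraph tracks per the file headers. Bowtie 0.12.7 (an aligner), MACS 1.4.1 (a peak caller) and build rn4 are named in the submitters' processing notes. The sources used here do not give how reads with several matches were placed, whether a control library was used, the threshold or the read depth, so the depth behind each peak is unknown. The deposited score was used only within its list.

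Peaks on Un were taken as members and those on chromosomes 1 to 20 as the comparison. Python 3.11.15 with pandas 2.3.3, numpy 2.4.6, scipy 1.17.1 and matplotlib 3.10.9 was used, and overlap counts were identical to those of bedtools 2.31.1. The code was tested on simulated data. Starts are printed with 1 added and may be 1 bp too high. Shares carry Wilson 95% intervals and medians exact binomial ones. No p-values are given, since each condition has 1 library.

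The members and measures were chosen with earlier results of these data known. Regions named are the 10 highest-scoring members of each list, the 5 highest-scoring unshared, 5 widest and 3 narrowest, the 3 runs with most peaks and the 3 fullest bins, with exceptions marked. Gene annotation and sequence of rn4 were not used here.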

Additional observations from a re-analysis of the deposited data

How the results depend on the processing

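No paired analysis was possible because there is only 1 library of each kind, and for the same reason no library could be left out. The read depth and the share of ambiguously mapped reads are unknown, which limits all values. Causes of these shifts were not tested. Of 44 comparisons with another setting, 17 stayed within the interval of the reported value, 25 moved beyond it and 2 turned the direction against the autosomes.

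The turned values are the shares of members with a neighbour within 50 kb, 85.6% in the basal and 77.1% in the phenylephrine list, below the autosomes. Within 1 kb these shares were 17.2% and 11.2%, among peaks scoring at least 100 they were 45.2% and 40.9%, and with peaks within 1 kb merged 48.0% and 40.9%, all above the autosomes. Unplaced sequence held 2.63% of basal and 3.62% of phenylephrine peaks scoring at least 100, 2.47% and 1.401% of equal numbers of top peaks, and 1.84% and 1.36% of the covered length. The top 5% of the lists took 14.1% and 18.9% of members. Median widths at a score of at least 100 were 1347 and 905 bp.

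Sharing of basal and phenylephrine members was 14.6% and 23.8% with 50% of both peaks, 30.4% and 48.6% at most 1 kb apart, 44.4% and 87.8% when scores had to reach 100, and 21.9% and 36.5% with every peak set to 600 bp, above the unweighted autosomes each time. Weighting the autosomes to the score bands of the members is not among the 44. It took away the differences in basal sharing and in mean, not median, phenylephrine width. Basal sharing of 25.2% then lay below 27.1%, a value within its interval. The mean phenylephrine width of 698 bp lay below 718 bp, with no interval for either. Phenylephrine sharing (43.3% against 30.2%) and neighbours within 10 kb (56.4% against 46.8%, and 46.7% against 36.1%) kept their direction. The median width ratio of pairs was 1.27 with 50% of both peaks overlapping.

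Leaving out the 2 strong runs was an alternative chosen after seeing the data. It lowered the share of members in the top 1% to 6.82% and 8.15%, still above the autosomes at 0.866% and 0.910%. Since these runs have the highest summed scores, a lower share followed from the choice itself. The other 9 values stayed within their intervals. They included sharing, at 23.0% and 40.4%.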
